A study of Homo sapiens with 24 samples.

Results

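The peroxiredoxins PRDX1, PRDX2, PRDX3, PRDX4, PRDX5 and PRDX6, thioredoxin (TXN), its reductase TXNRD1 and the glutathione peroxidases GPX1 and GPX4 were followed through a time series of K562 cells. The genes were chosen by name and looked up by Ensembl gene identifier in a table of FPKM values (fragment counts scaled by transcript length and by library total), where 9 of 10 were found among 12285 genes. GPX1 was not in this table and is not analysed here. K562 is an established human leukaemia line with erythroid features. A synchronous population was isolated by centrifugal elutriation, which separates cells by their sedimentation, and was cultured in RPMI medium with P/S and 10% bovine calf serum. Total RNA was sequenced from 24 samples, 1 every 2 h from 0 h to 46 h, with no other treatment and no replicate of any time point. The study for which the table was deposited examined isolated time points whose transcript levels depart from those before and after them. In these cells they are 16 h and 18 h, with 32 h as a milder case. The last was seen by eye and was not flagged by the study's detection function. The study proposes that such departures are likely technical and not biological, with a source it did not identify. Their origin was not tested here.

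Peroxiredoxins reduce hydrogen peroxide and other peroxides through a reactive cysteine. The oxidised 2-Cys enzymes are returned to the reduced state by thioredoxin, which in turn is reduced by thioredoxin reductase at the expense of NADPH, whereas glutathione peroxidases draw their electrons from glutathione. Erythroid cells carry much peroxiredoxin, and PRDX2 is among the most abundant proteins of the red cell.

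The libraries at 16 h and 18 h stood apart from the others across the whole table. The summed FPKM of all genes was 566247 at 16 h and 591309 at 18 h, against at most 520382 elsewhere, and 102 and 115 genes were listed at 0, against 58 at 32 h, 35 at 6 h and 4 to 27 at the remaining time points. Across 12148 genes the deviation at 16 h and 18 h correlated with the GC content of the transcript (r = -0.517) and with the log of its length (r = 0.295), as a description over genes of the same libraries. All 15 erythroid markers were present, with a summed level between 4371 and 9589 FPKM over the 24 samples. At 16 h and 18 h 7 of these 15 were 2-fold or more below the flanking time points, among them GATA1 and KLF1, and their part in the results below was not tested. Of markers of other cell types, the lymphoid CD3D had a mean of 7.05 FPKM, the myeloid LYZ one of 19.6 FPKM and the fibroblast COL1A2 one of 2.93 FPKM, and CD3E, CD14 and COL1A1 were not in the table. Of 6 landmark genes of G1/S and S phase, the JTK test described below called 4, MCM2, MCM5, CCNE2 and CDC6, with fitted peaks at 2 h or 4 h (adjusted permutation p between 0.00129 and 0.00318), and did not call CCNE1 or PCNA. Of 6 landmarks of G2/M it called 1, CCNB2, with a fitted peak at 20 h (adjusted permutation p = 0.0471). Because bulk RNA was measured, a smaller share of expressing cells and less RNA per cell cannot be told apart in any of the results.

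All 9 genes were expressed at every time point, each ranking among the 1061 most abundant of the 12285 genes by mean FPKM. Levels per transcript length are given over the 22 time points without 16 h and 18 h. PRDX1, a cytosolic 2-Cys peroxiredoxin, was the highest, with a median of 798 FPKM and a range from 576 FPKM at 32 h to 1229 FPKM at 22 h. PRDX6, the 1-Cys peroxiredoxin, followed with a median of 465 FPKM (350.3 to 499 FPKM). The median was 289.7 FPKM for PRDX2 (251 to 337 FPKM), 247 FPKM for TXN (226 to 281 FPKM) and 181 FPKM for GPX4 (167 to 216 FPKM). PRDX3, the mitochondrial 2-Cys enzyme, had a median of 133 FPKM (93.0 to 146 FPKM), and PRDX4, the 2-Cys enzyme of the endoplasmic reticulum, one of 107 FPKM (84.6 to 141 FPKM). PRDX5, an atypical 2-Cys enzyme found in mitochondria, peroxisomes and cytosol, and TXNRD1 were the lowest at 95.3 FPKM (88.3 to 131 FPKM) and 94.3 FPKM (85.9 to 110.5 FPKM).

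The order was stable at its upper end. PRDX1 exceeded PRDX6, and PRDX6 exceeded PRDX2, in 24 of 24 samples and with no overlap of their ranges over the 22 time points. The ranges of PRDX2 and TXN overlapped although PRDX2 was higher at each of the 22 time points, and at 16 h and 18 h TXN was the higher of the pair. PRDX3 exceeded PRDX4 in 21 of 24 samples. PRDX5 and TXNRD1 could not be ordered, since PRDX5 was higher in only 13 of 24 samples and their ranges overlapped. Together the 9 genes made up between 0.413% and 0.557% of the summed FPKM of all genes at the 22 time points, but 0.339% at 16 h and 0.318% at 18 h.

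The genes differed in how much they varied. The design gives no replicate error, so the scatter of a time point about the mean of both its neighbours was taken. It was estimated over 18 time points on the log2(FPKM + 1) scale. This scatter holds change over time and shifts of single libraries as well as measurement error. It was 3.0% for TXN and 4.82% for PRDX2, and rose through 5.59% for PRDX4, 6.28% for GPX4, 7.02% for TXNRD1, 7.82% for PRDX6 and 9.94% for PRDX3 to 10.6% for PRDX5 and 17.4% for PRDX1. The median over the 9 genes was 7.02%, beside 8.61% over all genes. By this measure TXN was in the lowest 0.947% of all genes, while PRDX1 had more scatter than 91.1% of them. The genes compared were not matched for level. The scatter of PRDX1 includes its values at 6 h, 22 h, 28 h, 30 h and 32 h, which are described below.

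**Figure D1:**
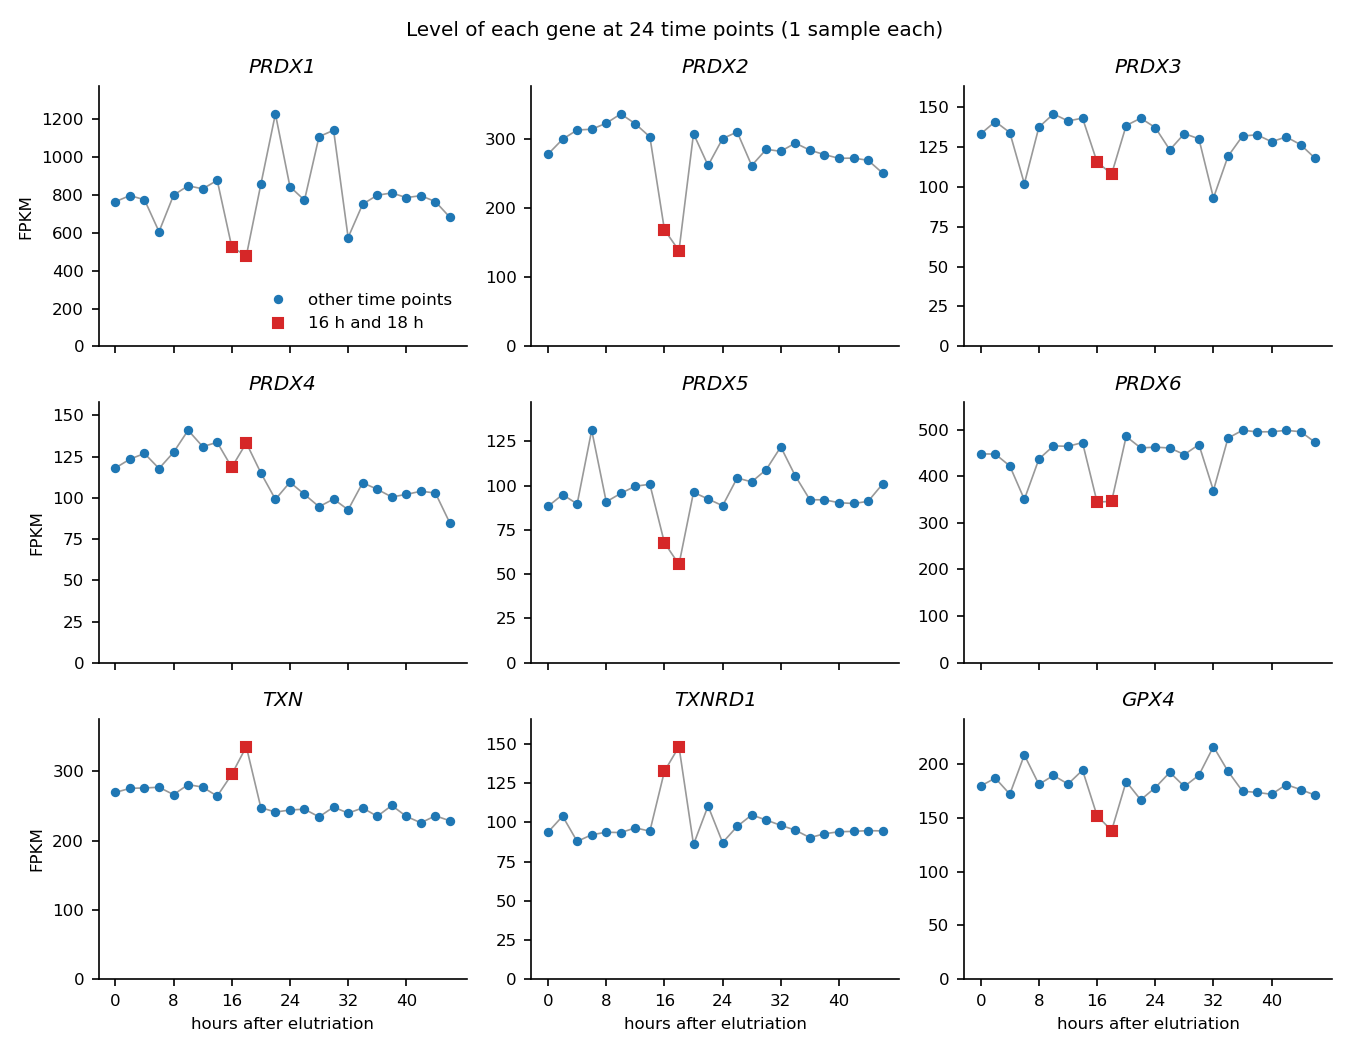
FPKM of each of the 9 genes (vertical axis, starting at 0) against hours after elutriation (horizontal axis). Each point is 1 sample, and red squares are 16 h and 18 h. PRDX2 is lowest at 16 h and 18 h, TXN and TXNRD1 are highest there (for TXN the deviation changes sign after quantile normalization or removal of the GC trend), and PRDX4 and TXN are lower in the later part of the series.

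The first question was whether the levels of these genes were ordered in time, with the 24 h cycle assumed for this culture. The JTK statistic (the largest Kendall S against cosines of a 24 h period) called 0 of 9 genes at an adjusted permutation p of 0.05 or below, beside 13% of all genes. At an unadjusted permutation p under 0.05, 4 of 9 passed (PRDX2, PRDX5, PRDX6 and GPX4), beside 30.2% of all genes. The nearest to the threshold was PRDX5, with a fitted peak at 6 h and an adjusted permutation p of 0.0578, followed by GPX4 with a fitted peak at 6 h (adjusted permutation p = 0.0707) and PRDX2 with a fitted peak at 8 h (adjusted permutation p = 0.0885). For PRDX1 and PRDX3 the adjusted permutation p was 0.931 and 0.997. Without 16 h and 18 h PRDX6 passed (adjusted permutation p = 0.00743), as did 16.2% of all genes. Without 6 h and 32 h as well its adjusted permutation p was 0.0135, and 8.64% of all genes passed. In the latter setting, chosen after seeing the data, the adjusted permutation p was 0.507 for PRDX5, 0.264 for GPX4 and 0.156 for PRDX2. With a linear trend removed from all 24 time points PRDX5 passed (adjusted permutation p = 0.0107), as did 13.5% of all genes. With the trend removed and 16 h and 18 h left out, a setting chosen after seeing the data, none of the 9 passed, beside 10.5% of all genes. The adjusted permutation p was then 0.0820 for PRDX6 and 0.234 for PRDX5.

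A drift over the culture was tested by Kendall's tau against time. PRDX6, which reduces phospholipid hydroperoxides, rose (tau = 0.45, adjusted permutation p = 0.0104), as did 15.0% of all genes. Its median was 454 FPKM at the 10 time points of the first day other than 16 h and 18 h. The second-day median, here and below over all time points from 24 h to 46 h, was 477 FPKM. PRDX6 was higher on the second day in 9 of 10 pairs taken 24 h apart, which leave out 40 h and 42 h. After median centring of each time point the rise of PRDX6 no longer passed (tau = 0.33, adjusted permutation p = 0.0662).

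Falls were seen for 3 of 9 genes, PRDX2, PRDX4 and TXN, beside 12.8% of all genes. PRDX4 went from a median of 125 FPKM on the first day to 102 FPKM on the second and was lower in 10 of 10 pairs (tau = -0.49, adjusted permutation p = 0.00446). Its highest value was 141 FPKM at 10 h and its lowest 84.6 FPKM at 46 h. TXN went from a median of 272 FPKM to 238 FPKM and was also lower in 10 of 10 pairs (tau = -0.54, adjusted permutation p = 0.00151). PRDX2 went from a median of 311 FPKM to 279.98 FPKM and was lower in 8 of 10 pairs (tau = -0.38, adjusted permutation p = 0.0327). The fall of PRDX2 did not pass after quantile normalization (adjusted permutation p = 0.389), Z-score quantile normalization (0.121) or upper-quartile scaling (0.0514). Without 16 h and 18 h PRDX3 passed too (tau = -0.39, adjusted permutation p = 0.0335), with a median of 139.7 FPKM on the first day and 129 FPKM on the second. TXNRD1, PRDX5 and GPX4 did not pass (adjusted permutation p of 0.914, 0.672 and 0.542). The first-day and second-day medians were 93.7 and 94.6 FPKM for TXNRD1, 95.3 and 96.5 FPKM for PRDX5, and 182 and 179 FPKM for GPX4.

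The second question was how the genes stood at 16 h and 18 h. For each gene the values at both time points were measured from a line drawn through the flanking samples, 14 h and 20 h, on the log2(FPKM + 1) scale, and the mean of both distances was set beside the range of the same quantity at 16 other pairs of consecutive time points. No test of this deviation was made, as each time point holds 1 sample. Over the 9 genes its median was -0.38, beside 0.14 over all genes. By this measure 6 of 9 genes lay below their own range, beside 28.0% of all genes, and 2 of 9 lay above it, beside 43.6% of all genes. None of the 9 was 2-fold below its flanks, beside 7.11% of all genes, and none was 2-fold above them, beside 8.95%.

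Among the 2-Cys peroxiredoxins PRDX2 lay farthest below. Its level was 303 FPKM at 14 h, 169 FPKM at 16 h, 138 FPKM at 18 h and 308 FPKM at 20 h, and both middle values were below each of the 22 others, of which the lowest was 251 FPKM. The deviation of -0.99 corresponds to 0.502 times the flanking level, against an own range from -0.14 to 0.22. PRDX1 was at 878, 526, 478 and 857 FPKM at the same 4 time points, with a deviation of -0.79 against an own range from -0.54 to 0.75. PRDX1 at 16 h and 18 h was thus also below its lowest value elsewhere (576 FPKM at 32 h). PRDX3 was at 143, 116, 108 and 138 FPKM, and its deviation of -0.33 lay only just outside its own range from -0.31 to 0.30. Its values of 102 FPKM at 6 h and 93.0 FPKM at 32 h were lower than either. PRDX4, at 134, 119, 133 and 115 FPKM, was the only one of the 9 within its own range (deviation 0.019, range -0.12 to 0.15). That position of PRDX4 holds for the values as deposited, after median centring and after removal of the GC trend, and not after upper-quartile scaling (-0.21) or quantile normalization (-0.27).

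PRDX5 was at 101 FPKM at 14 h, 67.8 FPKM at 16 h, 55.5 FPKM at 18 h and 96.2 FPKM at 20 h. The deviation was -0.67 against an own range from -0.29 to 0.24, and after removal of the GC trend it was -0.16 and within the range then found for the gene. PRDX6 was at 472, 345, 346 and 485 FPKM, with a deviation of -0.47 against an own range from -0.20 to 0.20. Its level at both time points was close to that at 6 h, 350.3 FPKM, so that the ranges nearly met.

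The thioredoxin pair lay on the other side. TXNRD1, the selenoprotein that reduces thioredoxin with NADPH, was at 94.4 FPKM at 14 h, 133 FPKM at 16 h, 148 FPKM at 18 h and 85.9 FPKM at 20 h. No other time point of TXNRD1 exceeded 110.5 FPKM, and its deviation was 0.63 (1.55 times the flanking level) against an own range from -0.22 to 0.10. It was positive under each of the 5 alternatives tried, with the lowest value, 0.37, after removal of the GC trend. TXN was at 264, 296, 336 and 248 FPKM, and both middle values exceeded its highest level elsewhere of 281 FPKM. The deviation of TXN was 0.30 against an own range from -0.08 to 0.08 as deposited, but -0.037 after quantile normalization and -0.097 after removal of the GC trend.

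GPX4, the selenoprotein that reduces lipid hydroperoxides within membranes, was at 194 FPKM at 14 h, 152 FPKM at 16 h, 138 FPKM at 18 h and 184 FPKM at 20 h. Both middle values were below its lowest level elsewhere, 167 FPKM. Its deviation of -0.38, against an own range from -0.14 to 0.17, became 0.41 after removal of the GC trend. The GC content of the longest protein-coding transcript was 65.2% for GPX4, 61.5% for PRDX5 and 58.6% for PRDX2, which lay below their flanks, and 42.8% for TXN and 44.8% for TXNRD1, which lay above them as deposited, with a median of 48.1% over all genes. PRDX3 and PRDX6 lay below their flanks at a GC content of 40.7% and 45.2%, and after removal of the GC trend their deviations were -0.75 and -0.72. PRDX1, at a GC content of 51.4%, then had a deviation of -0.77 and PRDX2 one of -0.61. A part of GC content in the deviations of these genes was not tested.

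**Figure D2:**
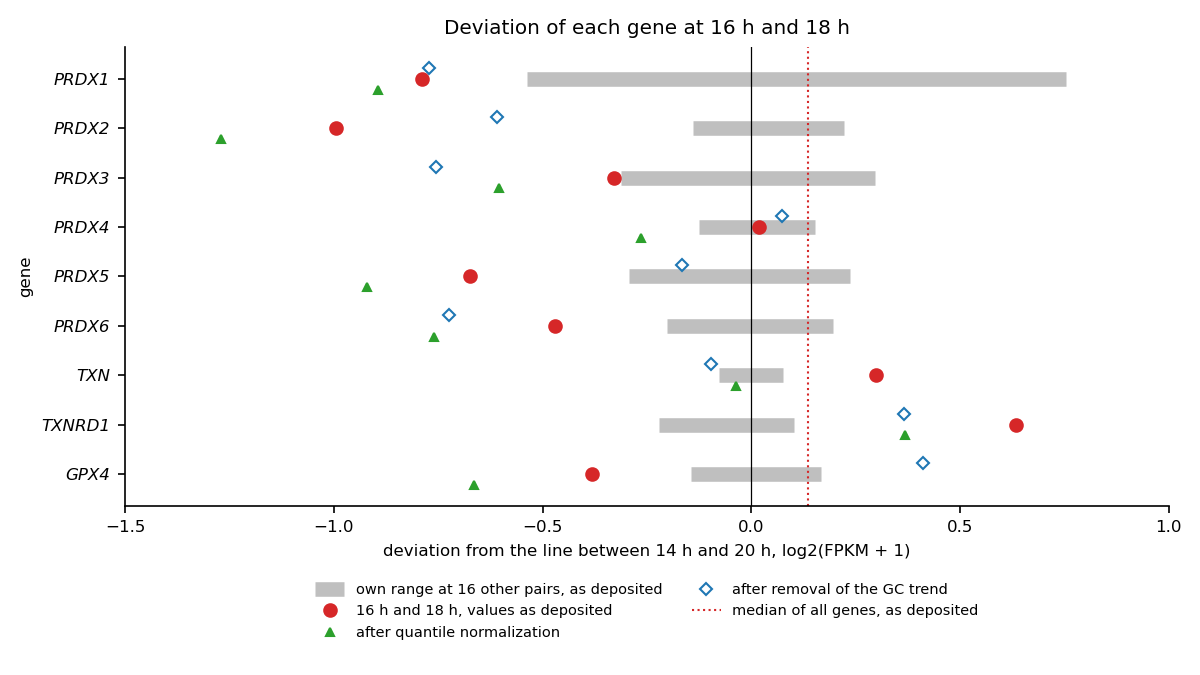
Deviation of each gene at 16 h and 18 h from the line between 14 h and 20 h (horizontal axis, log2(FPKM + 1)). Red circles are the deposited values, green triangles those after quantile normalization, open diamonds those after removal of the GC trend, grey bars each gene's own range at 16 other pairs of time points, and the dotted line the median of all genes (0.14). TXNRD1 lies above its bar in all 3 versions, TXN only as deposited (0.30, against -0.037 and -0.097), and GPX4 goes from -0.38 to 0.41 once the GC trend is removed.

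Promoter sequences were searched for motifs because TXNRD1 stood alone among the 9 in lying above its flanks under every scaling, a choice made after its values were seen. RefSeq promoters (250 bases before to 50 after a transcript start, GRCh38.p14) were at hand in 12 windows for 8 of the 10 genes named, and not for PRDX1 and PRDX6. The core of the antioxidant response element, to which NRF2 binds with small MAF proteins, was searched as TGACNNNGC on both strands. Of the 8 genes with a window only TXNRD1 held it, in both its windows (2 of 12), beside 13.3% of 35116 promoters in the same table. That count is near the share of all promoters, and a link to the level of TXNRD1 was not tested. The TXNRD1 promoter is shown here for both transcript starts, with the matches in capitals, both windows being 5′ to 3′ on the plus strand.
TXNRD1, chr12:104215529-104215828: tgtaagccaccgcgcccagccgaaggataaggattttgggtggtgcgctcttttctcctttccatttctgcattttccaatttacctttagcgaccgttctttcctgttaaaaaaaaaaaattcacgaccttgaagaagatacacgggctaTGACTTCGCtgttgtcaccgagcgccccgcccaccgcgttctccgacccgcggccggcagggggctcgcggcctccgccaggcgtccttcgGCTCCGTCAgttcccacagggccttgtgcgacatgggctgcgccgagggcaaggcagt
TXNRD1, chr12:104286782-104287081: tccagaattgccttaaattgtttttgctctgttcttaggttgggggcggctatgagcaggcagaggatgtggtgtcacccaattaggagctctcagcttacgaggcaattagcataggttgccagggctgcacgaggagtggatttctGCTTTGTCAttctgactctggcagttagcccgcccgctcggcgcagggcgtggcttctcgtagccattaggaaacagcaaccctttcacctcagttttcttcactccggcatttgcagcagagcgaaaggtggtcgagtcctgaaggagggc
In the upstream window the leftmost base of a plus-strand match lies 99 bases before the start and that of a minus-strand match 8 bases before it. In the downstream window the leftmost base of the minus-strand match lies 102 bases before the start. CCAAT was found in 4 windows, those of TXNRD1 and the first 2 of 3 overlapping or neighbouring windows of GPX4, beside 34.6% of all promoters. A match of letters is no evidence that a factor binds, and these coordinates are not of the build used for the FPKM values, GRCh37.

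At 32 h the distance from the mean of 30 h and 34 h was set beside the range at 15 other single time points. PRDX1, PRDX3 and PRDX6 lay below their own ranges, 3 of 9 genes beside 15.4% of all genes, and none of the 9 lay above, beside 18.4%. PRDX1 was at 1143 FPKM at 30 h, 576 FPKM at 32 h and 752 FPKM at 34 h, a deviation of -0.69. PRDX3 was at 130.1, 93.0 and 119 FPKM (deviation -0.42), just outside its own range, which ended at -0.41. PRDX6 was at 468, 369 and 482 FPKM (deviation -0.36). PRDX3 was within its own range after median centring, upper-quartile scaling and quantile normalization. In all 3 of these TXN lay outside its range, and after upper-quartile scaling PRDX4 did too.

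The same genes were low at 6 h, a pattern noticed in the values and described without a test. For PRDX1, PRDX3 and PRDX6 the 2 lowest of the 22 time points were 6 h and 32 h, beside 4.11% of all genes. PRDX1 at 6 h was at 606 FPKM, with 775 FPKM at 4 h and 799 FPKM at 8 h. PRDX3 was at 102 FPKM, with 134 and 137 FPKM on either side, and PRDX6 at 350.3 FPKM, with 422 and 437 FPKM. PRDX5 and GPX4 went the opposite way and were highest at 6 h and 32 h, beside 10.5% of all genes. PRDX5 was at 131 FPKM at 6 h and 122 FPKM at 32 h against at most 109 FPKM at the other 20 time points. GPX4 was at 208 FPKM and 216 FPKM against at most 194 FPKM. PRDX2, PRDX4, TXN and TXNRD1 had neither pattern. Across 12148 genes the mean distance of 6 h and 32 h from a gene's median had an r of 0.0734 with GC content and 0.167 with the log of length. The same 5 genes showed these patterns after the GC trend was removed, when the shares of all genes were 5.70% for the low and 8.22% for the high pattern.

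**Figure D3:**
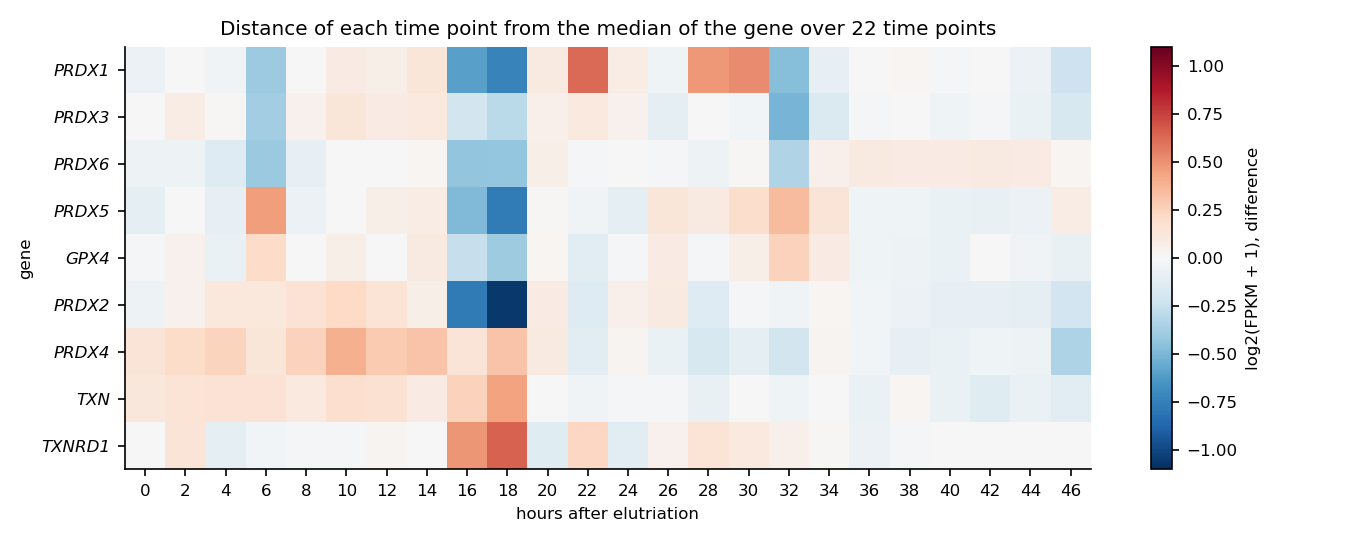
Distance of each sample from the gene's median over 22 time points (colour, log2(FPKM + 1); red above, blue below), with genes in rows and hours after elutriation in columns. PRDX1, PRDX3 and PRDX6 are blue at 6 h and 32 h, where PRDX5 and GPX4 are red, and PRDX1 is red at 22 h, 28 h and 30 h. Columns 16 h and 18 h show values as deposited. The deviations of TXN and GPX4 from their flanks there, a different quantity, change sign after removal of the GC trend.

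PRDX1 alone had its 3 highest values at 22 h, 28 h and 30 h, a combination also found after its values were seen and shared by 3.76% of all genes. Its levels there were 1229, 1109 and 1143 FPKM, while the other 19 of the 22 time points did not exceed 878 FPKM. At 24 h and 26 h, in between, it was at 845 and 773 FPKM. TXNRD1 was also highest at 22 h (110.5 FPKM) and next at 28 h (104.7 FPKM), but its next highest value was 104 FPKM at 2 h, with 101 FPKM at 30 h.

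Pairs of the 9 genes were compared by Pearson's r of log2(FPKM + 1) over the 22 time points, as a description, since the time points share libraries and follow each other. PRDX4 and TXN were the most alike (r = 0.857), followed by PRDX2 and PRDX4 (0.837), PRDX5 and GPX4 (0.820) and PRDX2 and TXN (0.778). PRDX1 and PRDX3 had an r of 0.688 and PRDX3 and PRDX6 one of 0.640. The lowest was that of PRDX3 and PRDX5 (-0.753), which were low and high at 6 h and 32 h. Over all 24 time points the r of PRDX2 and TXN was -0.435 and that of PRDX2 and PRDX4 was 0.0237, so that both rest on leaving out 16 h and 18 h, whereas that of PRDX5 and GPX4 was 0.924.

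Among 7086 genes with a symbol and a mean of at least 10 FPKM, the patterns most like those of the 9 genes were sought over the same 22 time points. For PRDX1 these were POMP, the proteasome maturation protein (r = 0.959), and DDOST, a subunit of the oligosaccharyltransferase (0.957). Both were highest at 22 h and lowest at 32 h. For PRDX2 they were TOMM40, the channel of the outer mitochondrial membrane translocase (0.959), and ZNF511 (0.916), and for PRDX4 the ribosomal protein gene RPL19 (0.954) and ATP5MC2, a subunit of ATP synthase (0.939). TXN was most like the ribosomal protein gene RPL30 (0.933) and RACK1 (0.926), and PRDX6 like HIGD1A (0.920) and EXTL2 (0.908). PRDX5 was most like HNRNPC (0.925) and UQCRB (0.919), and GPX4 like ATP5IF1, the inhibitor of the ATP synthase (0.908), and UFD1 (0.892). For PRDX3 the nearest were PIGY (0.955), which overlaps another gene and was close to 0 at 32 h, and RPL23A (0.939). Ribosomal protein genes have many pseudogene copies, so their values are uncertain where reads were shared among copies. TXNRD1 had no neighbour above PPP1CB (0.824) and TMEM50A (0.819). With 16 h and 18 h included, many of these values were far lower. The r was 0.332 and 0.274 for RPL19 and ATP5MC2 with PRDX4, -0.288 and -0.0679 for HNRNPC and UQCRB with PRDX5, and 0.142 and -0.136 for ATP5IF1 and UFD1 with GPX4. It was 0.491 and 0.610 for HIGD1A and EXTL2 with PRDX6, 0.953 and -0.161 for RPL30 and RACK1 with TXN, and 0.965 and 0.527 for PPP1CB and TMEM50A with TXNRD1. Those of PRDX1, PRDX2 and PRDX3 with their nearest genes lay between 0.846 and 0.912.

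The other genes of the pathway were taken from 5 lists, of which 68 of 77 genes were in the table. JTK called 12 of the 68, 15 rose over the series and 12 fell, beside 13%, 15.0% and 12.8% of all genes. At 16 h and 18 h 29 lay below their own ranges and 26 above, beside 28.0% and 43.6% of all genes, with a median deviation of -0.069 beside 0.14. Of the 68, 7 were 2-fold below and 1 was 2-fold above their flanks, beside 7.11% and 8.95% of all genes. None had its 3 highest values at 22 h, 28 h and 30 h, 4 were lowest and 8 were highest at 6 h and 32 h, beside 3.76%, 4.11% and 10.5% of all genes. The same shares of all genes apply to the counts of each list. Deviations of these related genes are of the values as deposited, and those after removal of the GC trend are not given here.

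Of 14 genes of the thioredoxin and glutaredoxin system, 1 was called by JTK, 2 rose, 4 fell, 6 lay below their own range at 16 h and 18 h and 4 above. TXNDC12, an oxidoreductase of the endoplasmic reticulum, was the one called (adjusted permutation p = 0.00298, fitted peak at 20 h). TXNL1, a thioredoxin-like protein of the proteasome, was at 151 FPKM at 16 h and 163 FPKM at 18 h, against a median of 70.6 FPKM. TXNDC17 was at 29.5 and 28.7 FPKM against a median of 80.4 FPKM, a deviation of -1.40. MSRB1, a methionine sulfoxide reductase, deviated by -0.88 and the glutaredoxin GLRX3 by 0.41.

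Of 15 genes of glutathione synthesis and use, 2 were called by JTK, 3 rose, 3 fell, 6 lay below their own range and 7 above. SLC7A11, the cystine importer, was called (adjusted permutation p = 0.0342, fitted peak at 20 h). Apart from that fit, its highest level, 33.6 FPKM, was at 46 h, against a median of 9.23 FPKM. LANCL1, a glutathione-binding protein, was called with an adjusted permutation p of 0.0471. CHAC1, which degrades glutathione, had its highest level of the 22 time points, 65.2 FPKM, at 46 h as well, against a median of 5.42 FPKM. The glutathione transferase GSTP1 was at 370.1 FPKM at 16 h and 302 FPKM at 18 h, below its range of 585 to 741 FPKM elsewhere. GCLC, the catalytic subunit of the first enzyme of glutathione synthesis, deviated by 0.65, and MGST1 by 0.88. GCLC fell over the series (adjusted permutation p = 2.25e-04) and MGST1 rose (adjusted permutation p = 0.00685).

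Of 10 genes among superoxide dismutases, catalase and the NRF2 arm, 3 were called by JTK, 1 rose and none fell, and 4 lay on each side of their own ranges. KEAP1, which holds NRF2 in the cytosol, MAFG, its partner on DNA, and the ferritin heavy chain FTH1 were called, with adjusted permutation p of 0.00372, 0.00809 and 0.0427. Each had its fitted peak and its highest level of the 22 time points at 6 h. The 6 h library had 35 genes listed at 0, and the calls of these 3 genes without it are not given here. NFE2L2, which encodes NRF2, was at 69.0 FPKM at 16 h and 74.5 FPKM at 18 h, above its highest level elsewhere of 53.8 FPKM. SOD1, the cytosolic superoxide dismutase, was at 695 and 747 FPKM against at most 584 FPKM. The NRF2 target NQO1 was at 31.1 and 28.1 FPKM, below its lowest level elsewhere of 41.6 FPKM, and the ferritin light chain FTL was at 704 and 634 FPKM against at least 1342 FPKM.

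All 11 genes of NADPH supply were in the table, and 3 were called by JTK, 5 rose, 1 fell, 6 lay below their own range and 5 above. The cytosolic isocitrate dehydrogenase IDH1 was called (adjusted permutation p = 0.00298, fitted peak at 20 h). Apart from that fit, it reached 64.9 FPKM at 46 h against a median of 32.9 FPKM. The malic enzyme ME1 and the transaldolase TALDO1 were called with adjusted permutation p of 0.0103 and 0.0427. NNT, the mitochondrial transhydrogenase, deviated by 0.96 and ME2 by 0.68, while NADK, the NAD kinase, deviated by -1.02 and PGLS by -0.81. Of 18 genes of selenoprotein synthesis and other selenoproteins, 3 were called by JTK, 4 rose, 4 fell, 7 lay below their own range and 6 above. The 3 called were SELENOI (adjusted permutation p = 0.00372), TRNAU1AP (0.0302) and SEPSECS (0.0471). TRNAU1AP and SEPSECS act on the selenocysteine tRNA. SELENOW was at 22.5 and 26.2 FPKM against a range of 85.8 to 143 FPKM elsewhere, a deviation of -2.12, and SELENOK deviated by -1.17. SECISBP2, which binds the selenocysteine insertion element, and SELENOF each deviated by 0.80. In the values as deposited selenoproteins stood on both sides, as did TXNRD1 and GPX4. The deviation of GPX4 changed sign once the GC trend was removed.

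**Figure D4:**
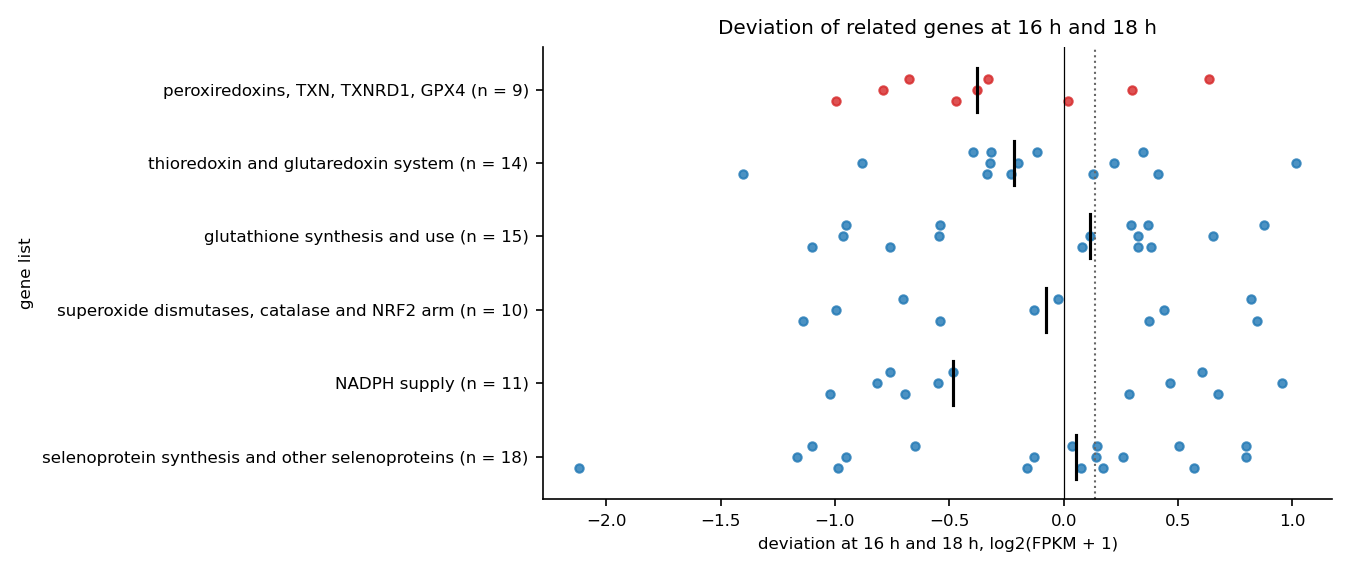
Deviation at 16 h and 18 h (horizontal axis, log2(FPKM + 1), values as deposited) of the 9 genes (red) and of 68 related genes in 5 lists (blue), each point 1 gene, staggered vertically for legibility. Black bars are list medians and the dotted line is the median of all genes (0.14). The 9 genes have a median of -0.38 and the related genes, 29 below and 26 above their own ranges, one of -0.069.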

How the data were processed

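K562 RNA was collected at 24 time points, 1 sample each, grouped by the hour in the labels. The authors deposited FPKM values made with STAR, Cufflinks and Cuffnorm (GRCh37 in the submitters' notes), and a cleaned table of scores that equals a Z-score quantile normalization of the FPKM (largest difference 8.88e-16). Apart from the major version of Cufflinks, versions, strand and the handling of multi-mapped reads are not given in the sources used here. Low values of 1526 genes with a single transcript model were examined for steps of 1 read. At the best step at most 44.2% lay within 0.1 of a whole number in a sample, so counts were not recovered and depth is unknown.

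JTK and Kendall's tau used a permutation p from 100000 orderings of the time points, Benjamini-Hochberg adjusted over 12285 genes and called at 0.05, after a check on simulated data. Without replicates they carry no replicate error, and neighbouring samples are not independent. Deviations were compared over the 12253 genes averaging 1 FPKM or more. The GC trend removed was a running median over GC content at each time point. Other scalings, time points, periods, pseudocounts and filters were alternatives. The genes named were all members found, per related list up to 4 called genes with the lowest JTK p and the 2 farthest above and below their flanks at 16 h and 18 h, and the 2 genes most like each member. The members and lists were chosen with earlier results of these data known. Symbols (11434 genes), lengths and GC content came from GENCODE 29. None of 20 named pseudogene copies of the members was in the table. Python 3.11.15, numpy 2.4.6, scipy 1.17.1 and pandas 2.3.3 were used.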

Additional observations from a re-analysis of the deposited data

How the results depend on the processing

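The count of members that JTK called went from 0 to 1 (PRDX6) without 16 h and 18 h, beside 16.2% of all genes. It was also 1 (PRDX6) with both interpolated by PCHIP, beside 18.4%. With 6 h, 16 h, 18 h and 32 h left out, an alternative chosen after seeing the data, it was 1 (PRDX6), beside 8.64%. It was 1 (PRDX5) with median centring, beside 13.3%, and with a linear trend removed, beside 13.5%. The count of rising members went from 1 to 0 with median centring, beside 13.8% of all genes. That of falling members stayed between 2 and 4, beside 11.1% to 18.1% of all genes. The count 2-fold below their flanks went from 0 to 1 with median centring (PRDX2, beside 9.19% of all genes) and with quantile normalization (PRDX2, beside 7.62%). It was 2 with upper-quartile scaling (PRDX1, PRDX2, beside 10.6%) and 3 at 1.5-fold (PRDX1, PRDX2, PRDX5, beside 16.8%). The count 2-fold above went from 0 to 1 at 1.5-fold (TXNRD1), beside 23.9% of all genes. The members' median deviation at 16 h and 18 h, -0.38 as deposited, was -0.49 with median centring, -0.61 with upper-quartile scaling, -0.66 with quantile normalization and -0.16 with the GC trend removed, where the median of all genes was 0.025, -0.063, 0.058 and 0.00406, against 0.14 as deposited. The deviation reversed for TXN with quantile normalization (-0.037) and with the GC trend removed (-0.097), and for GPX4 with the GC trend removed (0.41). The cause was not tested. With the trend removed and 16 h and 18 h left out as well, also chosen after seeing the data, the JTK count was 0, beside 10.5% of all genes. No paired analysis was possible because the labels give 1 sample per time point and no replicate numbers, and the pairs of time points 24 h apart were counted without a fit. The number of samples limits every result to the order of single libraries in time, and the unknown depth leaves the counting error of each value unknown.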
